A study of Mus musculus with 8 samples.

Results

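The endothelial and vascular genes described here are 38 genes that mark or build blood vessels, taken by name: 16 receptors, 11 junction, adhesion and surface proteins, 3 transcription factors, 4 ligands and secreted proteins and 4 intracellular proteins. All 38 had at least 1 probe set with a single gene symbol, out of 18193 genes with such a probe set, and 32 of the 38 were bright enough to be tested among 12982 genes. They were followed in 8 arrays of CCE cells, an embryonic stem (ES) cell line from mice of strain 129/Sv. The groups were embryoid bodies of cells given a lentivirus with mouse Bmi1 cDNA (2 arrays), embryoid bodies of cells given the empty vector (2 arrays), ES cells given the Bmi1 virus (2 arrays), and control ES cells, of which 1 array was from untreated and 1 from empty vector cells. Embryoid bodies are aggregates in which ES cells differentiate into several tissues at once, here over 10 days. By the labels' protocols transduced cells were sorted for eGFP. The sources used here do not name the promoter that drove the cDNA, nor say whether the sorted cells were a clone. Each array measured total RNA of a mixed culture, so fewer endothelial cells and less RNA per endothelial cell cannot be told apart.

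Bmi1 is a subunit of a Polycomb complex that represses developmental genes, and its own signal went against its labels. On the log2 scale of the deposited values, the embryoid body arrays labelled Bmi1 read 7.48 and 8.51 and their vector counterparts 9.35 and 9.67. The ES cell arrays labelled Bmi1 read 5.68 and 6.28, with 7.41 for untreated and 7.74 for empty vector cells. The groups are therefore called labelled Bmi1 throughout, and directions are given by label. Whether the probe sets can read the viral cDNA is not known here. The value distributions of the arrays were almost the same within each of 3 sets: both embryoid body arrays of number 1, both of number 2, and the 4 ES cell arrays. Both embryoid body sets contained an array of either label, so differences are given within each number and with the set as a term in the model (the replicate block). Stage and set cannot be told apart.

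Endothelial cells arise in mesoderm that responds to VEGF through the receptor Kdr, and ETS, Gata and Sox family factors switch on their genes. Maturing vessels then use the Tek receptor and its angiopoietin ligands, junction proteins that seal neighbouring cells, and surface glycoproteins that face the blood. Day-10 embryoid bodies commonly hold vascular networks of this kind beside blood, heart muscle and endoderm.

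Promoters were read for the 4 members with the smallest p in embryoid bodies among those with an entry, since ETS, Gata and Sox core motifs are the letters most tied to endothelial transcription. Each window is the 250 bases before the start given in the RefSeq promoter table, build GRCm38.p6, plus strand, written 5′ to 3′. That start can lie inside the annotated gene: 16 bases of the Emcn window and 203 of the Tek window do so, and they are not printed, so Emcn is shown without them and Tek not at all. Emcn lies at chr3:137340828-137341061, Cldn5 at chr16:18776597-18776846 and Rasip1 at chr7:45627287-45627536. Capitals mark the motifs on either strand. The ETS cores searched were CAGGAA, whose reverse complement is TTCCTG, and CCGGAA. The Gata core was AGATAA. The Sox core was ACAAT, which reads ATTGT on the other strand.
Emcn: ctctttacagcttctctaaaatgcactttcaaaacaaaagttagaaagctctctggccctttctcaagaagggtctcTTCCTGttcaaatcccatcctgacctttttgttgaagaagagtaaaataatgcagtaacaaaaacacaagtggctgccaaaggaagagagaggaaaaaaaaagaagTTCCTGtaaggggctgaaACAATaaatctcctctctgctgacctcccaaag
Cldn5: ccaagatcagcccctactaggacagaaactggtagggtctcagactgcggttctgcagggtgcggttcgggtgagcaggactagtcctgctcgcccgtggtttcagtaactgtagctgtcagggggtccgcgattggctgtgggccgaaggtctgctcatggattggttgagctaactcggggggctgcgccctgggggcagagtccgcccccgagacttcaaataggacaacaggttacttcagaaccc
Rasip1: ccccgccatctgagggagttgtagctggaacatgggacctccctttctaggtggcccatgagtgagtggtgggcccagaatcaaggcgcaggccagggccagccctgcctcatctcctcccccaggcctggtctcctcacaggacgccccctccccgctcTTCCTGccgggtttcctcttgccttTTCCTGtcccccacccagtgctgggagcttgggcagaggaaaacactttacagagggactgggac
Emcn held 2 matches to CAGGAA and 1 to ACAAT, and the whole Tek window held 2 of each, 1 ATTGT overlapping a TTCCTG. Rasip1 held 2 matches to CAGGAA and Cldn5 held none of the motifs. Of the 38 members, 18 had a promoter in the RefSeq table. CAGGAA stood in 11 of these 18 (61.1%), against 25.4% of all 27025 promoters of that length. CCGGAA stood in 1 (5.56%, against 12.2%), AGATAA in 1 (5.56%, against 10.3%) and ACAAT in 5 (27.8%, against 28.3%). These are counts of letters in the table's windows, parts inside genes included, and were not tested.

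In embryoid bodies, most endothelial genes had lower signals under the Bmi1 label than with the empty vector. Of all 38 members, 35 had a negative log2 difference of group means (92.1%), where 54.7% of all 18193 genes did. Their median was -0.57, against -0.02 over all genes. Both arrays labelled Bmi1 lay below both vector arrays for 29 of 38 members, where 12.3% of all genes did so, and both lay above for 1 member, where 9.36% of all genes did. In a list of 33 further endothelial genes, both lay below for 11 (33.3%) and above for 2 (6.06%). Within number 1 and within number 2 alike the difference was below 0 for 33 of 38 members, where 32.9% of all genes were below 0 in both. Among the 32 tested members 30 were negative (93.8%), against 57.2% of the 12982 genes tested. Their median difference was -0.60 (quartiles -0.88 and -0.44), against -0.04 over all genes tested. It was -0.67 within number 1 and -0.54 within number 2, against -0.05 and -0.03 over all genes tested. The members and the further list were chosen with earlier results of these data known. These shares and medians therefore describe the lists and were not tested.

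No tested member passed an adjusted p of 0.05 in the limma fit of 4 groups, which called 0.00770% of all genes lower and 0.131% higher. At an unadjusted p under 0.05, 19 of the 32 members were lower and 0 were higher, where 3.45% of all genes were lower and 3.61% higher. With the set as a term in the fit, 6 members fell, Aplnr, Tek, Emcn, Pecam1, Sox17 and Sox18, where 0.739% of all genes were called lower. None of the 32 was called higher in that fit, where 1.35% of all genes were. The 6 calls thus rest on taking out the difference between numbers. The spread left after that has 3 residual degrees of freedom, from arrays of both stages, before limma moderates it.

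**Figure D1:**
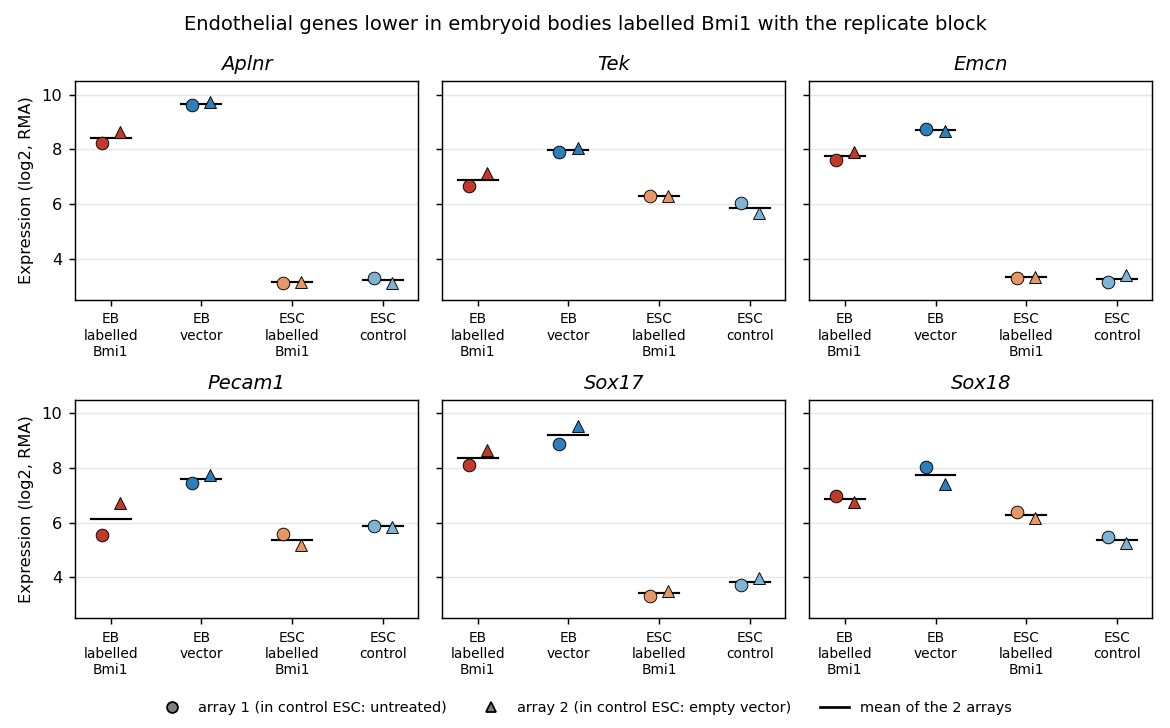
Deposited log2 expression of the 6 members called lower in embryoid bodies labelled Bmi1 with the set term, 1 panel a gene. Circles and triangles are the arrays and black lines the group means. In each panel both embryoid body arrays labelled Bmi1 sit below both vector arrays, and Aplnr, Emcn and Sox17 lie between 3.12 and 3.96 in all ES cells.

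Among receptors, 10 of 11 tested members had a negative difference in embryoid bodies (90.9%, against 57.2% of all genes tested). Their median was -0.55, and 2 fell with the set term. Aplnr, the receptor for apelin on angioblasts and sprouting vessels, read 8.22 and 8.62 in arrays labelled Bmi1, against 9.63 and 9.72 in vector arrays. Its difference was -1.25 ± 0.19 (log2, SE; limma adjusted p = 0.0921, and 0.0134 with the set term), which is 0.420 times the vector level. It was -1.41 within number 1 and -1.10 within number 2, so the difference was larger than the spread between numbers in either group. Tek, the receptor for angiopoietins, read 6.66 and 7.12 against 7.90 and 8.06 in vector arrays. Its difference was -1.09 ± 0.22 (adjusted p = 0.195, and 0.0304 with the set term), or 0.470 times the vector level. For both receptors the groups did not overlap.

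Ramp2, a partner protein that makes the calcitonin receptor-like receptor respond to adrenomedullin, read 7.76 and 7.74 in arrays labelled Bmi1, against 8.56 and 8.47 in vector arrays. The difference of -0.76 ± 0.18 missed the threshold in both fits (adjusted p = 0.309, and 0.0637 with the set term), although it was alike within the numbers, at -0.80 and -0.73. S1pr1, the sphingosine-1-phosphate receptor that steadies vessels, read 7.01 and 6.61 against 7.62 and 7.35 in vector arrays. Its difference was -0.67 ± 0.21 (adjusted p = 0.477, and 0.0606 with the set term). Flt1, a VEGF receptor that largely acts as a trap for the ligand, read 8.34 and 8.32 against 8.72 and 8.83 in vector arrays. Its difference was -0.45 ± 0.16 (adjusted p = 0.588, and 0.114 with the set term), and the groups of S1pr1 and Flt1 did not overlap either.

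The other receptors ranged more widely. Kdr, the main signalling receptor for VEGF, differed by -0.55 ± 0.21 and by nearly the same amount within both numbers, -0.57 and -0.54 (adjusted p = 0.618, and 0.0620 with the set term). Cd93, a C-type lectin-like surface receptor of endothelium, differed by -0.58, Robo4, a guidance receptor of vessels, by -0.48, and Flt4, the receptor for VEGF-C, by -0.42. In these 4 genes both arrays labelled Bmi1 lay below both vector arrays, where 14.4% of all genes tested did. None of the 4 passed the test in either fit. Eng, a co-receptor for TGF-beta family ligands, differed by only -0.23 and its groups overlapped. Nrp1, a co-receptor for VEGF and semaphorins that neurons and mesenchyme also carry, was the one tested receptor with a positive difference, 0.07 ± 0.30, made of -0.37 in number 1 and 0.51 in number 2.

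The 5 receptors too dim to be tested were Tie1, the orphan partner of Tek, Acvrl1, a receptor for BMP9, Stab2 and Lyve1, hyaluronan receptors of sinusoidal and lymphatic endothelium, and Clec14a, a lectin-like endothelial protein. Tie1 read 5.16 and 5.12 in arrays labelled Bmi1, against 5.43 and 6.38 in vector arrays. Stab2 read 5.61 and 5.21 against 6.48 and 5.68 in vector arrays. Tie1, Stab2 and Acvrl1 had both arrays labelled Bmi1 below both vector arrays, where 12.3% of all genes did, while Clec14a and Lyve1 overlapped. Lyve1 was the only dim receptor with higher values labelled Bmi1 within both numbers, by 0.35 and 0.09, and its other, dimmer probe set went the opposite way, with a difference of group means of -0.58.

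**Figure D2:**
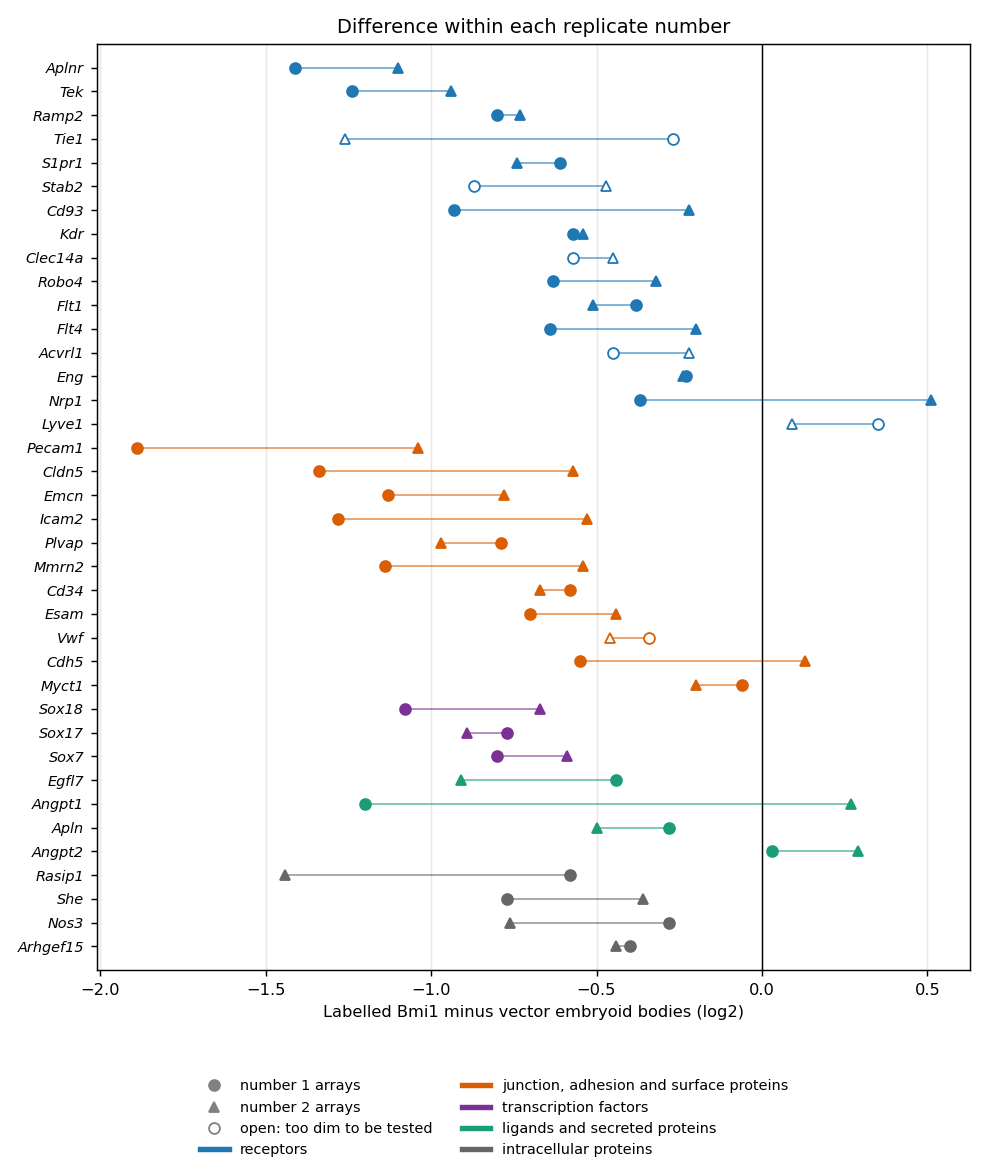
Log2 difference, labelled Bmi1 minus vector embryoid bodies, within number 1 (circles) and within number 2 (triangles) for the 38 members, grouped by role, with open symbols for the 6 too dim to be tested. Both symbols lie left of 0 for 33 members, and Nrp1, Cdh5 and Angpt1 lie on opposite sides of 0.

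All 10 tested junction, adhesion and surface proteins had a negative difference, where 57.2% of all genes tested did. Their median was -0.86, and 2 fell with the set term. Pecam1, an adhesion molecule at endothelial borders that ES cells also carry, read 5.56 and 6.70 in arrays labelled Bmi1, against 7.45 and 7.74 in vector arrays. The difference was -1.47 ± 0.36 (adjusted p = 0.313, and 0.0341 with the set term), or 0.362 times the vector level, the most negative of the members. It was uneven, -1.89 within number 1 and -1.04 within number 2, and without 1 array in turn it lay between -2.04 and -0.89. Emcn, endomucin, a sialoglycoprotein of venous and capillary endothelium, read 7.61 and 7.90 against 8.74 and 8.69 in vector arrays. Its difference was -0.96 ± 0.18 (adjusted p = 0.178, and 0.0320 with the set term), or 0.515 times the vector level, with -1.13 and -0.78 within the numbers. The arrays of both genes were apart between the groups.

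Plvap, the protein of the diaphragms of fenestrated endothelium, read 7.36 and 7.51 in arrays labelled Bmi1, against 8.15 and 8.48 in vector arrays. It differed by -0.88 ± 0.21 (adjusted p = 0.309, and 0.0587 with the set term). Icam2, an adhesion molecule for leukocytes, read 6.92 and 7.02 against 8.19 and 7.56 in vector arrays, a difference of -0.91 ± 0.23 (adjusted p = 0.328, and 0.0667 with the set term). Cldn5, a tight junction claudin, read 8.06 in both arrays labelled Bmi1, against 9.40 and 8.63 in vector arrays. Its difference was -0.96 ± 0.26 (adjusted p = 0.376, and 0.0692 with the set term). In Icam2 and Cldn5 the first vector array was the high one, so that the differences were -1.28 and -1.34 within number 1 but -0.53 and -0.57 within number 2.

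The remaining members of this group included Mmrn2, a matrix partner of Cd93 and Clec14a, at -0.84, Cd34, a sialomucin of endothelium and blood progenitors, at -0.63, and Esam, a tight junction adhesion molecule, at -0.57. In these 3 genes both arrays labelled Bmi1 lay below both vector arrays, where 14.4% of all genes tested did. None of the 3 passed the test in either fit. Cdh5, VE-cadherin, the defining cadherin of endothelial junctions, showed little difference. It read 6.70 and 7.25 in arrays labelled Bmi1, against 7.25 and 7.12 in vector arrays, and differed by -0.21 ± 0.26 (adjusted p = 0.986, and 0.654 with the set term). Within the numbers Cdh5 went opposite ways, -0.55 and 0.13, and its groups overlapped. Vwf, the clotting factor stored in endothelial granules, was too dim to be tested, at 3.79 and 4.50 against 4.13 and 4.96 in vector arrays. Myct1, a small membrane protein of endothelium, depended on its probe set. Its brightest one differed by -0.13, and a dimmer one by -0.81.

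All 3 Sox transcription factors, the SoxF family that works redundantly in arterial and lymphatic endothelium, had negative differences, where 57.2% of all genes tested did. With the set term 2 of the 3 fell. Sox18 read 6.96 and 6.75 in arrays labelled Bmi1, against 8.05 and 7.41 in vector arrays. Its difference was -0.88 ± 0.24 (adjusted p = 0.376, and 0.0454 with the set term), or 0.545 times the vector level. Sox17, which definitive and visceral endoderm express as well, read 8.10 and 8.64 against 8.87 and 9.53 in vector arrays. Its difference was -0.83 ± 0.28 (adjusted p = 0.534, and 0.0375 with the set term), or 0.562 times the vector level. Number 2 was the higher of each pair in Sox17, and the differences within the numbers were close, -0.77 and -0.89. Sox7, also a gene of early endoderm, read 7.01 and 7.06 against 7.81 and 7.65 in vector arrays, a difference of -0.69 ± 0.28 that missed the threshold in both fits (adjusted p = 0.682, and 0.209 with the set term). Its other, dimmer probe set went the opposite way, at 0.14, and the mean of its probe sets differed by -0.28.

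The ligands and secreted proteins showed no call in either fit. Egfl7, a matrix protein that endothelial cells secrete, read 7.84 and 7.94 in arrays labelled Bmi1, against 8.28 and 8.85 in vector arrays, a difference of -0.67 ± 0.22 (adjusted p = 0.513, and 0.0732 with the set term). Apln, the ligand of Aplnr, read 7.22 and 6.82 against 7.50 and 7.32 in vector arrays, a difference of -0.39 ± 0.23 (adjusted p = 0.833, and 0.262 with the set term). The ligand's difference was thus the smaller of the pair, and this contrast between the genes was not tested. Angpt1, the activating ligand of Tek, which mural and mesenchymal cells make, read 7.89 and 8.03 against 9.09 and 7.76 in vector arrays. One vector array decided its sign, as the difference of -0.46 ± 0.39 (adjusted p = 0.918, and 0.440 with the set term) became 0.20 without vector array 1. Angpt2, the context-dependent ligand of Tek made by endothelium itself, was the only member with both arrays labelled Bmi1 above both vector arrays, 7.25 and 7.25 against 7.22 and 6.96. That difference was 0.16 ± 0.18 and passed in neither fit.

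All 4 intracellular proteins had negative differences, where 57.2% of all genes tested did, and none was called. Rasip1, a Ras-binding protein needed for vessels to open a lumen, read 5.48 and 5.55 in arrays labelled Bmi1, against 6.07 and 6.99 in vector arrays. It differed by -1.01 ± 0.29 (adjusted p = 0.404, and 0.0620 with the set term), with -0.58 within number 1 and -1.44 within number 2. Nos3, the endothelial nitric oxide synthase, read 6.46 in both arrays labelled Bmi1, against 6.73 and 7.22 in vector arrays, a difference of -0.52 ± 0.24 (adjusted p = 0.739, and 0.212 with the set term). Arhgef15 read 5.77 and 5.49 against 6.17 and 5.93 in vector arrays, a difference of -0.42 ± 0.22 (adjusted p = 0.788, and 0.223 with the set term). She, an SH2-domain adaptor, differed by -0.56 ± 0.33 (adjusted p = 0.831, and 0.360 with the set term). In all 4 genes both arrays labelled Bmi1 lay below both vector arrays, where 14.4% of all genes tested did.

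**Figure D3:**
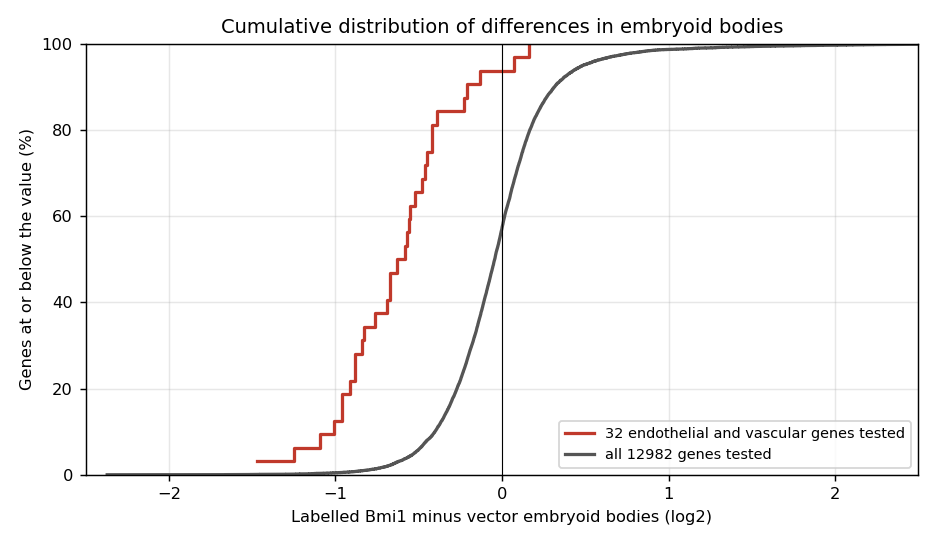
Share of genes (percent) at or below each log2 difference, labelled Bmi1 minus vector embryoid bodies, for the 32 tested members (red) and all 12982 genes tested (grey). The members' line crosses 0 after 30 of 32 genes, and their median of -0.60 lies left of the median of all genes, -0.04.

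Probe sets of the same gene mostly pointed the same way. The members had 71 probe sets, and 19 members had more than 1. Of the 33 further probe sets, 20 were bright, and 17 of these 20 had the same sign of difference in embryoid bodies as the brightest one. The 3 exceptions were 1 of Flt1, at 0.32, and 2 of Nrp1, at -0.18 and -0.02. Further probe sets of Aplnr and Sox17 differed by -0.52 and -0.75.

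In ES cells the same genes showed no common direction. Between the Bmi1-labelled and the control ES cells, 18 tested members had a positive and 14 a negative difference, where 51.1% and 48.9% of all genes did. Their median was 0.07, against 0.00 over all genes tested. Both arrays labelled Bmi1 lay above both control arrays for 9 of 32 members, where 25.1% of all genes did, and below for 8, where 20.6% did. No member passed the limma test, which called 0.0462% of all genes higher and 0.00% lower. An unadjusted p under 0.05 was reached by 4 of the 32 members, all higher, where 4.98% of all genes were higher and 1.32% lower. With the set term only Sox18 rose, where 1.39% of all genes were called higher and 0.270% lower.

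Sox18 read 6.38 and 6.16 in ES cells labelled Bmi1, against 5.46 (untreated) and 5.26 (empty vector) in the controls, a difference of 0.91 ± 0.24 (adjusted p = 0.381, and 0.0463 with the set term). She read 7.69 and 7.11 against 5.85 (untreated) and 6.74 (empty vector), a difference of 1.11 ± 0.33 (adjusted p = 0.447). The 2 control arrays of She were far apart, and the difference lay between 0.66 and 1.55 when 1 array was left out. Cd34 read 6.85 and 6.07 against 5.46 (untreated) and 5.71 (empty vector), a difference of 0.88 ± 0.27 (adjusted p = 0.470). Ramp2 read 6.35 and 6.14 against 5.61 (untreated) and 5.97 (empty vector), a difference of 0.46 ± 0.18 (adjusted p = 0.740). All 4 genes had arrays labelled Bmi1 above both control arrays, where 25.1% of all genes tested did. They were picked for the smallest p in ES cells, which favours genes with arrays apart. All 4 had the opposite direction in embryoid bodies, where 30 of the 32 tested members were negative whatever their direction in ES cells.

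The difference between stages was tested directly, as the embryoid body difference minus the ES cell difference. It was negative for 29 of 32 tested members (90.6%), where 57.2% of all genes tested were negative. Its median over the members was -0.58, against -0.06 over all genes tested. No member passed without the set term, a fit that called 0.00% of all genes in either direction. At an unadjusted p under 0.05, 14 members were lower and 0 higher, where 4.81% of all genes were lower and 2.03% higher. With the set term 3 members were called lower, where 0.470% of all genes were, and 0 higher, where 0.354% were. Sox18 differed between stages by -1.78 ± 0.34 (adjusted p = 0.0278 with the set term), Tek by -1.52 ± 0.31 (adjusted p = 0.0436) and Aplnr by -1.19 ± 0.27 (adjusted p = 0.0498). The SE values are those of the fit without that term. In Aplnr the ES cell values lay between 3.12 and 3.29 in all 4 arrays, below the array median, so its ES cell difference of -0.06 is one between dim signals.

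**Figure D4:**
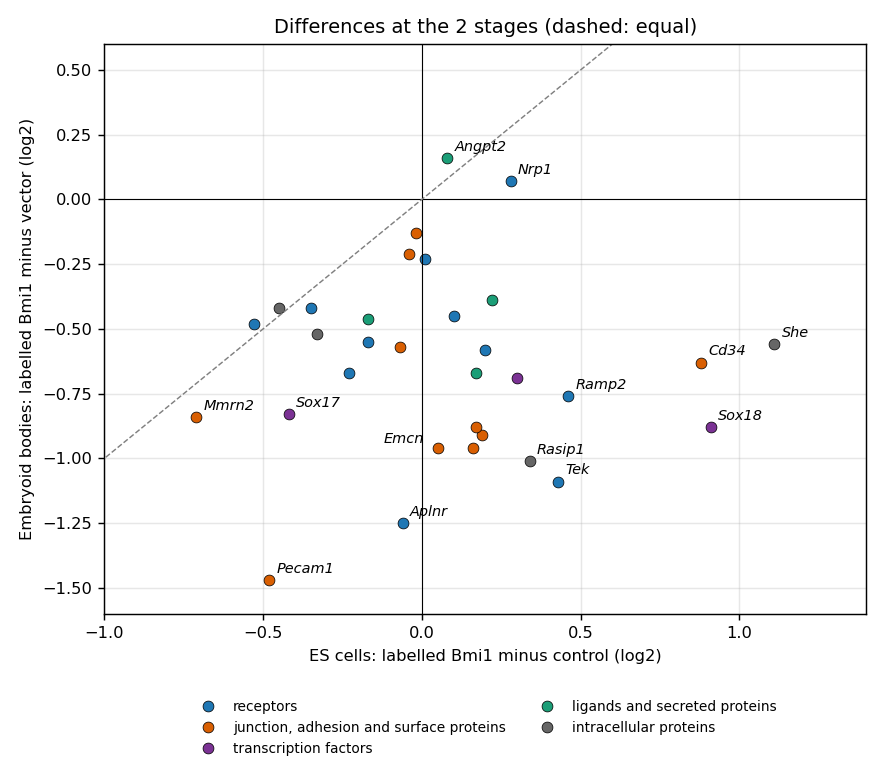
Log2 difference labelled Bmi1 minus vector embryoid bodies (vertical) against labelled Bmi1 minus control ES cells (horizontal) for the 32 tested members, coloured by role, with a dashed line where both are equal. On the vertical axis 30 points lie below 0, while 18 lie right of 0 and 14 left of 0 on the horizontal axis.

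The endothelial genes that changed with stage were mainly higher in embryoid bodies than in ES cells, 26 of 38 in vector samples and 18 of 38 in samples labelled Bmi1. Between vector embryoid bodies and control ES cells, 26 of all 38 members rose and 0 fell in the fit without a filter on dim genes, where 20.8% of all genes were called higher and 26.4% lower. Their median difference was 1.88, against -0.04 over all 18193 genes. Between embryoid bodies and ES cells labelled Bmi1, 18 of 38 members rose and 2 fell in that fit, where 19.6% of all genes were called higher and 28.0% lower, with a median of 0.74, against -0.06 over all genes. These comparisons run across array sets, so scaling enters their size: the median of the 32 tested members labelled Bmi1, 0.67, became 0.32 with median centring and 0.41 with quantile normalization. Of the 32 tested members, 10 passed the filter through embryoid body arrays alone and were bound to read higher there. Among the 32, 21 were called higher in vector samples (22.7% of all genes tested) and 16 in samples labelled Bmi1 (21.2%).

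In vector samples the 4 largest differences from ES cells were those of Nrp1, Cd93, Aplnr and Emcn, closely followed by Sox17 at 5.36. Nrp1 read 11.26 and 11.22 in embryoid bodies labelled Bmi1 and 11.64 and 10.72 in vector ones, against 4.50 and 4.73 in ES cells labelled Bmi1 and 4.17 and 4.50 in control ES cells. Its vector embryoid bodies exceeded control ES cells by 6.84 ± 0.30 (limma adjusted p = 2.4e-05). Cd93 read 8.84 and 8.90 in embryoid bodies labelled Bmi1 and 9.77 and 9.12 in vector ones, against 3.27 and 3.04 in ES cells labelled Bmi1 and 3.01 and 2.90 in control ES cells, a vector rise of 6.49 ± 0.24. Aplnr rose by 6.47 ± 0.19 and Emcn by 5.45 ± 0.18 in vector samples, against 5.28 and 4.44 in samples labelled Bmi1. Kdr rose by 2.51 and Cdh5 by 2.39 in vector samples, and by 2.13 and 2.23 in samples labelled Bmi1. The ES cell values of Nrp1, Cd93, Aplnr and Emcn were all below the array median.

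Of the 21 members called higher in vector samples, 16 were also called higher in samples labelled Bmi1 and 5 were not: Pecam1, Plvap, Sox7, Sox18 and She. Among these 5, the difference between the stage changes passed the test for Sox18 alone, and only with the set term. Pecam1 rose by 1.74 ± 0.36 in vector samples (adjusted p = 0.00546), against 0.75 ± 0.36 in samples labelled Bmi1 (adjusted p = 0.113). Plvap rose by 1.42 ± 0.21 in vector samples, against a difference of 0.38 ± 0.21 in samples labelled Bmi1 (adjusted p = 0.165). In samples labelled Bmi1, Rasip1 differed by -1.78 ± 0.29 and Egfl7 by -0.78 ± 0.22, and these 2 members were the ones that fell. The number of members called lower was 1 to 4 under the alternatives, and 1 with quantile normalization or when probe sets of a gene were averaged. Of the 3 further probe sets of Egfl7, 2 differed by -0.72 and -0.70 and the other by 0.65. In vector samples Rasip1 differed by -0.42 and Egfl7 by 0.06 (1.43 for the probe set that went the other way), and neither gene passed the test without the set term. With that term Rasip1 was called lower in vector samples too, at -0.67, where 46.3% of all genes tested were. Median centring without the set term also gave 1 member called lower in vector samples. Both genes were above the array median in ES cells, Rasip1 at 7.38 and 7.21 in those labelled Bmi1 and 6.96 and 6.94 in controls.

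Several names of this group told the stages apart poorly. Eng, Flt4, Robo4, Esam, Mmrn2, Myct1, Apln, Nos3 and Arhgef15 passed the test in neither stage comparison, with vector differences between -0.50 (Robo4) and 0.64 (Esam). Eng read 7.93 and 7.52 in vector embryoid bodies, against 7.59 and 7.65 in control ES cells. A dimmer probe set of Myct1 differed by 3.07 between vector embryoid bodies and control ES cells, where the brightest one differed by 0.52. Further probe sets of Flt4 and Arhgef15 also lay outside that range, at 0.94 and -1.26.

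**Figure D5:**
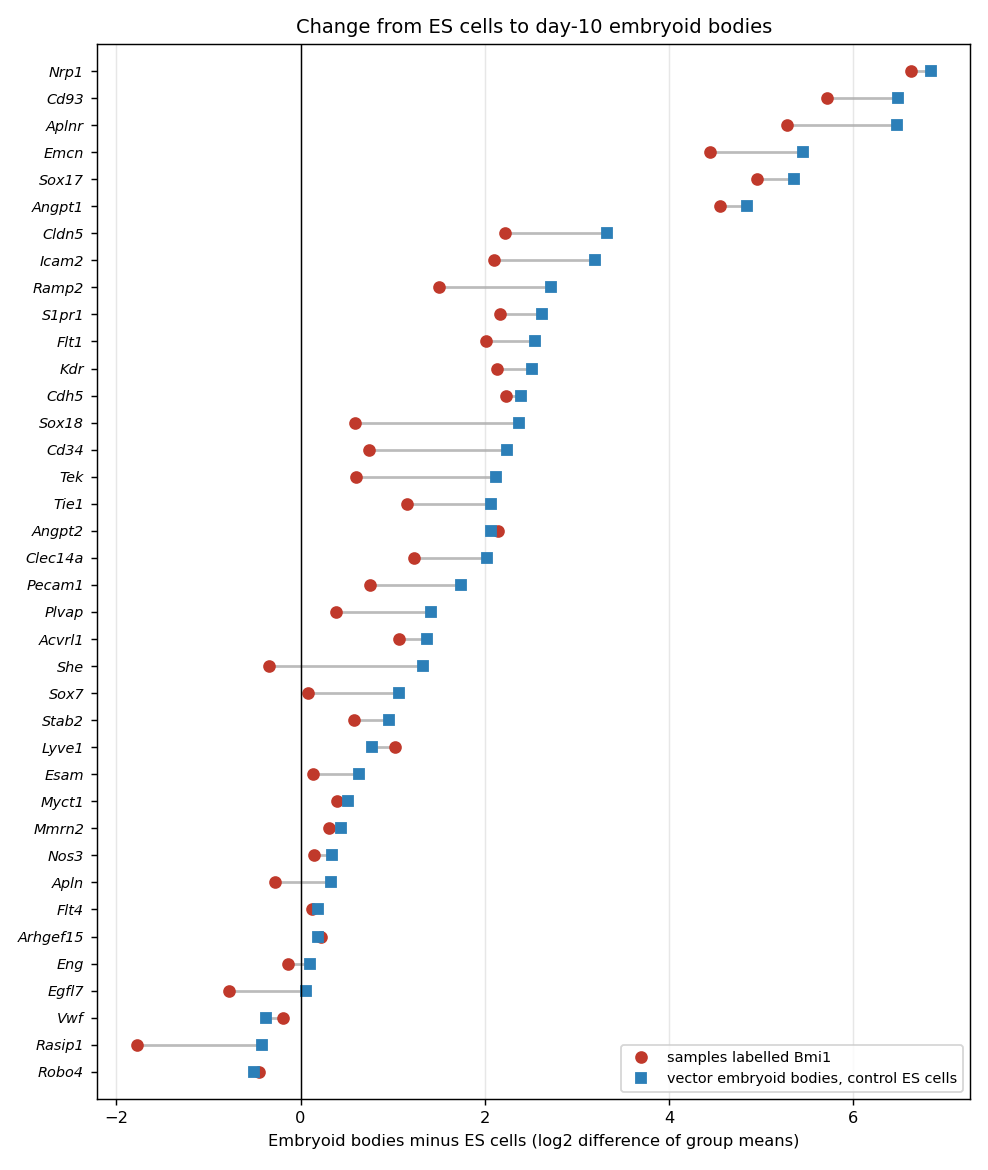
Log2 difference of group means, embryoid bodies minus ES cells, for all 38 members, in samples labelled Bmi1 (circles) and in vector embryoid bodies against control ES cells (squares). Circles lie left of squares for most members. Nrp1, Cd93 and Aplnr have the largest vector differences, between 6.47 and 6.84.

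Other vascular genes, from lists of related names, had medians nearer 0 in embryoid bodies. Negative differences were also common over all genes tested, at 57.2%. Of 21 tested vascular regulators, mostly transcription factors of the endothelial and blood programme, 16 had negative differences (76.2%), with a median of -0.44. With the set term 1 fell and 1 rose, where 0.739% of all genes were called lower and 1.35% higher. Lyl1, a bHLH factor of early endothelium and blood, read 6.41 and 6.57 in arrays labelled Bmi1, against 7.33 and 7.15 in vector arrays, a difference of -0.75 ± 0.16 (adjusted p = 0.227, and 0.0393 with the set term). Lmo2, its partner in DNA-binding complexes, differed by -0.82 ± 0.22 (adjusted p = 0.338, and 0.0596 with the set term). Gata2 went the other way, at 8.64 and 8.79 against 7.01 and 7.57 in vector arrays, a difference of 1.43 ± 0.22 (adjusted p = 0.0921, and 0.0109 with the set term). Gata2 also serves blood progenitors, trophoblast and neurons.

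Of 13 tested Notch and ephrin genes, 10 had negative differences (76.9%, against 57.2% of all genes tested), with a median of -0.27. Nrarp, a feedback inhibitor and target of Notch, fell with the set term, by 0.95 ± 0.20 (log2, adjusted p = 0.203, and 0.0357 with the set term). The Notch target factors Hey1 and Hey2 differed by -0.41 and -0.65 and passed in neither fit. Of 17 tested growth factor genes, 11 had negative differences (64.7%), near the share of all genes, with a median of -0.29. None of the 17 was called in either fit. Among them Tgfb1 differed by -0.79, Vegfb by -0.52 and Vegfa, the main ligand of Kdr, by -0.46. Of 27 tested further endothelial genes, 22 had negative differences (81.5%), with a median of -0.39. With the set term Calcrl, the receptor that Ramp2 serves, was called lower (-0.69 ± 0.47, adjusted p = 0.874, and 0.0328 with the set term) and Adgrf5, an adhesion G protein-coupled receptor, higher (0.80 ± 0.19, adjusted p = 0.291, and 0.0445 with the set term). Calcrl read 7.10 and 8.26 against 7.77 and 8.97 in vector arrays, so its numbers differed more than its groups.

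Markers of other cell types moved in embryoid bodies beside the endothelial genes, and their part in the results was not tested. The mean level of the 38 endothelial genes was at most 7.03 in the embryoid body arrays labelled Bmi1, against 7.54 and 7.69 in the vector arrays. The 5 primitive red cell markers averaged 7.36 and 7.71, against 8.64 to 8.90 in vector arrays. All 5 had negative differences, where 57.2% of all genes tested did, with a median of -1.40. With the set term 2 globin genes of the embryo, Hba-x and Hbb-bh1, fell, where 0.739% of all genes were called lower. The 10 blood cell markers averaged 7.30 to 7.36, against 6.85 to 7.80 in vector arrays, and overlapped. The 8 mural cell markers averaged 7.79 and 7.83, against 7.88 to 8.04 in vector arrays, with 4 of 7 tested negative and no call. That share, 57.1%, was about that of all genes tested, 57.2%. The 5 visceral endoderm markers averaged 7.96 to 8.55, against 8.46 to 9.19 in vector arrays, with 3 of 4 tested negative. The 5 heart muscle markers averaged 8.59 to 8.81, against 6.49 to 8.22 in vector arrays. All 4 tested were positive, where 42.7% of all genes tested were. Myh6 was called higher with the set term, where 1.35% of all genes were. No list had a defining marker at 0, a value these log2 data do not reach.

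The 5 markers of undifferentiated ES cells averaged 8.82 and 10.12 in embryoid body arrays labelled Bmi1, and 8.58 and 10.76 in vector arrays. Both number 2 arrays were higher than both number 1 arrays. In ES cells they averaged 12.66 to 12.84 in arrays labelled Bmi1, against 13.07 to 13.11 in control arrays. In embryoid bodies the mean of these markers was slightly higher in the array labelled Bmi1 within number 1, and lower within number 2. Their part in the endothelial differences was not tested. Over all 38 members, dim ones included, replicate arrays differed by a root mean square of 0.401 in embryoid bodies labelled Bmi1 and 0.547 in vector ones. Over all genes tested, which leave dim genes out, it was 0.509 and 0.669.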

How the data were processed

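Values of 8 Affymetrix arrays were used, 1 a sample, which measured biotin-labelled total RNA. The deposited values are log2 expression per probe set, which the authors computed with RMA according to the submitters' processing notes. Its version and the arrays run together are not stated there. Of 45037 probe sets that are no controls, 34945 had 1 symbol in the platform annotation. Each gene was represented by its brightest probe set, on the mean of the 8 arrays, and tested where it exceeded the array median in at least 2 arrays.

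One limma 3.58.1 model (R 4.3.3, lmFit and eBayes) held 4 groups, with 1 spread per gene shared by all arrays. It was refitted with a term for embryoid body number 2, since both arrays of a number share a value distribution: the mean absolute difference of sorted values was 0.0099 to 0.0325 within the 3 sets and 0.1885 to 0.442 across them. The 2 number 1 arrays' deviations from their group means correlated at 0.72. P-values were two-sided, adjusted by Benjamini-Hochberg over 12982 genes at 0.05, and SE is the moderated one of the fit without the term. No label says that replicates were separate cultures, so the p-values rest on a spread between arrays that may be technical. The number of arrays limits the precision.

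Members, lists and motifs were chosen with earlier results of these data known. In full are given, by role, the members with the smallest p in embryoid bodies (5, 5, 3, 3 and 3), the 4 smallest in ES cells and the 4 largest vector stage changes, with up to 3 genes of each further list and those it calls. Other members are named with fewer values. Cdh5, Tie1, Stab2, Vwf, Angpt2 and Eng are printed by array for their place in the text, and were chosen after their values were seen. Older symbols were matched by synonym, and 1 list entry had no probe set. The fit without the set term was tested on simulated data, and the fit with that term was not. Alternatives were other filters, scalings, control arrays and arrays left out.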

Additional observations from a re-analysis of the deposited data

Results flagged for a closer look

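3 members had a labelled Bmi1 difference that differed between embryoid bodies and ES cells, by a test of that difference itself with the set of arrays as a term. Sox18 differed by -1.78 between the stages, made of -0.88 in embryoid bodies and 0.91 in ES cells (adjusted p = 0.0278). Tek differed by -1.52, made of -1.09 and 0.43 (adjusted p = 0.0436), and Aplnr by -1.19, made of -1.25 and -0.06 (adjusted p = 0.0498). Without the set term the adjusted p of Sox18, Tek and Aplnr was 0.243, 0.267 and 0.3, so none of the 3 passed.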

How the results depend on the processing

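The negative median of the 32 tested members in embryoid bodies kept its sign under each alternative tried. It was -0.72 with a filter at the 75th percentile, and -0.72 to -0.55 when 1 array was left out. Calls depended on the replicate block, the term for embryoid body number: it gave 6 called members in embryoid bodies, 1 in ES cells and 3 for the difference between stages, against 0 for each without it. In ES cells the block changed only the shared spread and not the differences. The correlation of same-numbered arrays rests on 1 pair of embryoid body arrays, so the pairing is a hint from the data. Leaving out 1 array gave 0 to 3 calls in embryoid bodies. The 3 (Cldn5, Icam2 and Angpt1) came without vector embryoid body array 2, which also gave 1 call (Sox18) for the difference between stages, against 0 to 1 over all arrays left out. That stage difference had a median of -0.69 to -0.56. In ES cells there were 0 calls whichever array was left out, with medians of 0.03 to 0.07. Angpt1 in embryoid bodies ranged from -1.13 to 0.20 and reversed without vector array 1, and the cause was not tested.

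The stage comparisons moved with filter and scaling. Between vector embryoid bodies and control ES cells, 12 members were called with the 75th percentile filter, as fewer genes were tested, and 19 to 23 with 1 array left out. The median was 2.64 with that filter, 1.88 with none, 1.77 after median centring, 1.94 after quantile normalization, 1.93 against untreated cells alone and 1.93 to 2.16 with 1 array left out. Between embryoid bodies and ES cells labelled Bmi1, the median was 2.07 with the 75th percentile filter, 0.32 after median centring, 0.41 after quantile normalization and 0.53 to 0.83 with 1 array left out, with 15 to 19 calls. Scaling shifted all genes: the median over genes tested was -0.24 as deposited, -0.04 after quantile normalization and -0.56 after centring in vector samples, and -0.27, -0.03 and -0.62 in samples labelled Bmi1. The share of called genes that were higher was 38.8%, 48.7% and 26.6% in vector samples and 35.8%, 47.3% and 22.8% in samples labelled Bmi1. Signs changed under scaling only in members that were not called in that comparison, among them Flt4, Eng and Arhgef15, and Egfl7 in vector samples. With 2 arrays a group and dim signals in ES cells for 10 members, small differences there are not resolved.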
